A study of Mus musculus with 6 samples.

Results

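The genes described here are 33 erythroid genes, whose products make haemoglobin, its heme, and the membrane and regulators of the red cell line. They were chosen by name, and the rule took every array probe annotated with one of the 33 symbols. Of the 33, 30 had at least 1 probe (64 of the 45281 probes), while Hbb-b1, Ahsp and Epb41 had none under those names and were not analysed here. For each gene the probe with the highest mean signal stood for the gene, as for all 19057 genes of the table.

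RNA was measured on 6 Illumina bead arrays, 1 per sample of mouse leukemia cells. T cell acute lymphoblastic leukemia (T-ALL) had been induced with NOTCH1, and bone marrow cells positive for GFP, CD4 and CD8, labelled male, were sorted at 4 weeks from the transplantation. The 3 control arrays are labelled wild type (WT1 to WT3) and the other 3 knock out, Klf4-deficient (KO1 to KO3), and both groups carry the NOTCH1-induced leukemia. The sources used here give no strain, age or Cre line, nor whether a sample is 1 animal, so the spread between arrays may be technical. The transplanted host has its own marrow, in which red cells are made.

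Haemoglobin is a tetramer of alpha and beta globin chains, each holding a heme. Heme is made from glycine and succinyl-CoA by a chain of mitochondrial and cytosolic enzymes, with iron taken up through the transferrin receptor. In bone marrow these genes are switched on in erythroblasts under the transcription factors Gata1 and Klf1, and most of them are silent in T cells. Klf1 belongs to the same zinc finger family as Klf4.

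On the whole arrays, the mean signal ran from 417 to 445 in the controls and was 426, 432 and 359 in KO1, KO2 and KO3. KO3 lay apart from the others on the first principal component of the 8360 genes above background on every array, at 30.92 against -11.44 to 2.02. Klf4 itself read 44, 18.4 and 24.6 in the controls and 80.6, 46 and 85.4 in KO1 to KO3, against the direction of the label, and the place of its probe relative to the deletion is unknown. "KO" therefore stands below for the label alone. Several T cell markers were strong, with Cd8b1 between 25892 and 29424 and Cd3e between 11577 and 15232. Others were lower: Cd4 read 1044 to 1477, Rag2 174 to 289 and the Cd8a probe in use only 12 to 34. Cd5, at 3 to 17.9, was under background on every array. The background limit, 3 times the SD of the background, was 21.8 to 23.7 by array, and signals over it count as above background.

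Erythroid transcripts, the globins among them, were plainly present in these sorted samples. Of the 30 genes, 23 were above background on every array, as were 8360 of all 19057 genes. The 23 include genes that other cells also use, such as Urod, Tfrc and Gypc. KO3 and KO2 gave the highest signal for most of the 30 genes, KO1 was nearer the controls, and WT1 was often lowest. In bulk samples, more cells of a type and more of its RNA per cell cannot be told apart. On the normalized log2 scale, 23 of the 30 genes (76.7%) had KO3 highest and KO2 second, an order that 5.34% of all genes had. WT1 was the lowest array for 19 of the 30 (63.3%), against 11.3% of all genes. KO1 was within the range of the controls for 16 genes, above it for 12 and below it for 2. These orders were picked after the values were seen and are given as a description without a test.

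**Figure D1:**
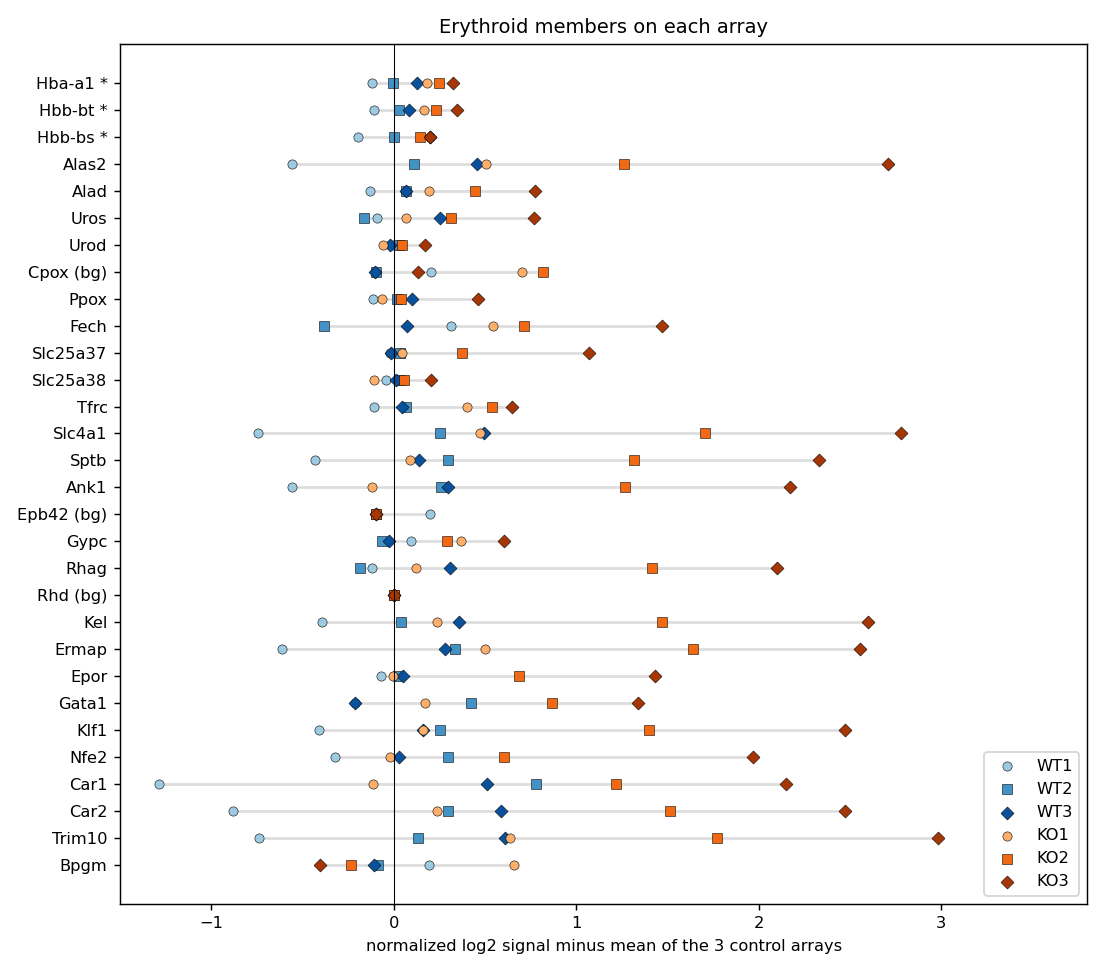
Normalized log2 signal of each of the 30 genes (rows) on the 6 arrays, minus the mean of the 3 controls; grey lines span the 6 arrays, * marks genes near the top of the scale and (bg) genes under the background limit on every array. KO3 (dark diamonds) lies farthest right for most rows, KO2 next, and WT1 farthest left for 19 of them.

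Between the labelled groups, 0 of the 30 genes passed in limma at an adjusted p of 0.05, where 0.0105% of all genes did (2 of 19057). At an unadjusted p under 0.05, 6 of the 30 were higher and 0 lower in the KO arrays, beside 3.49% and 4.10% of all genes. The lowest adjusted p among the 30 was 0.401, for Tfrc. The median log2 difference, KO minus control, was 0.63 over the 30 genes and 0.00 over all genes, and it was 0.40 without KO3 and 0.89 without KO1. For 11 of the 30 the difference was above 1, which held for 0.593% of all genes. The groups did not overlap, with KO higher, for 10 of the 30, where 5.45% of all genes did so, and for 0 with KO lower, where 6.11% did so. Without KO3 the number was 11 (all genes 10.2%), without WT3 it was 15 (all genes 8.06%), and without KO1 it was 24 (all genes 11.1%). In either direction, the count without WT3 was again 15, beside 17.6% of all genes. With no normalization between arrays the number was 7 (all genes 3.09%), and averaging the probes of a gene gave 6 (all genes 5.07%). Hba-a1, Alas2 and Trim10 are among the 10 on the normalized scale, but their groups overlapped in deposited signal. With each probe taken alone, 15 of the 64 were higher and 1 lower without overlap, where 9.90% of all probes did either.

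**Figure D2:**
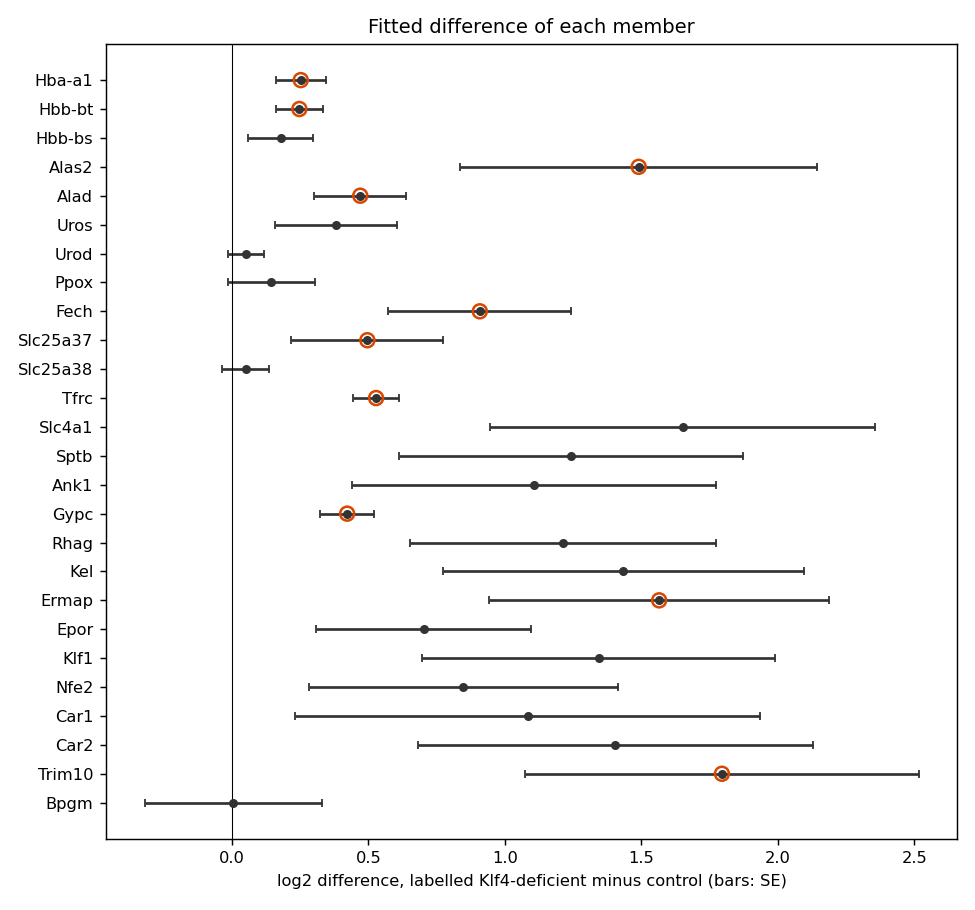
Log2 difference, KO minus control, for the 26 genes above background on at least 1 control array; bars are standard errors from limma (3 against 3 arrays) and orange rings mark the genes whose groups did not overlap on the normalized scale. The largest differences (Trim10 at 1.79, Slc4a1 at 1.65) have errors of about 0.7, while Tfrc (0.53) and Gypc (0.42) have errors near 0.1.

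The sequence upstream of the start was searched for 3 motifs. RefSeq promoters (GRCm38.p6) were used here for 22 of the 30 genes, 25 promoters in all, and the 250 bases before each start were searched on both strands. No promoter was used for Slc4a1, Ank1, Gypc, Fech, Slc25a37, Nfe2, Car1 or Car2. A GATA motif (AGATAA or AGATAG, or either with T as its first letter) was found in 13 of the 25 (52.0%) and in 26.5% of all 32841 promoters of the same length. A CACCC box, the kind of site that Klf proteins bind (the letters CACACCC, and also CGCACCC), was found in 6 of the 25 (24.0%) and in 9.98% of all. The core of the NF-E2 site (TGAGTCA) was found in 2 of the 25 (8.0%), Kel and Trim10, and in 4.46% of all. In Cpox a pair of GATA matches shared 1 base, and otherwise no matches overlapped. A match is a run of letters and not a measured site. Cpox, Epb42 and Rhd held a GATA motif and were under background on every array. A link between the motifs and the order of the arrays was not tested. The promoters of Hba-a1, Hbb-bs, Klf1, Kel and Trim10 are printed because they cover a globin of each kind, the factor Klf1, Trim10, which held all 3 motifs, and Kel, which held a pair of GATA motifs and an NF-E2 core. Cpox and Uros also held a pair of GATA motifs each and are not printed. Capitals mark the matches, and each sequence runs 5′ to 3′ along the gene and ends at the base before the start.
The Hba-a1 stretch is chr11:32283422-32283671, plus strand, and holds a GATA motif on the sense strand.
Hba-a1: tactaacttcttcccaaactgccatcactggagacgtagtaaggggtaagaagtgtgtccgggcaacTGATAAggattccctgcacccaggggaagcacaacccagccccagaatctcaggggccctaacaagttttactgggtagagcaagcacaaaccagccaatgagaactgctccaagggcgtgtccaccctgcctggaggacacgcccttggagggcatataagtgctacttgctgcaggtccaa
The Hbb-bs stretch is chr7:103827929-103828178, minus strand, with a GATA motif and, nearer the start, a CACCC box.
Hbb-bs: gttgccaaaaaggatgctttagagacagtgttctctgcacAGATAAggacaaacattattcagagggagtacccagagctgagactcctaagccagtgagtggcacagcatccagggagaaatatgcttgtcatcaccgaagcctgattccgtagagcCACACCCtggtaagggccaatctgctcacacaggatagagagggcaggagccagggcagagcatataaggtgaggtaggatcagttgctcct
The Klf1 stretch is chr8:84901732-84901981, plus strand, with a CACCC box and a GATA motif in the antisense direction.
Klf1: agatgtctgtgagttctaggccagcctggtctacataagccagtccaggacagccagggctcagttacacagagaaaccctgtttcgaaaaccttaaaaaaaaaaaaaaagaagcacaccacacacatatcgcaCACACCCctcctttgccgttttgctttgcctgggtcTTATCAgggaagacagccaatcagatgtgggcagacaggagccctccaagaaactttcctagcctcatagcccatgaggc
The Kel stretch is chr6:41704326-41704575, minus strand, with an antisense NF-E2 core and a pair of GATA motifs.
Kel: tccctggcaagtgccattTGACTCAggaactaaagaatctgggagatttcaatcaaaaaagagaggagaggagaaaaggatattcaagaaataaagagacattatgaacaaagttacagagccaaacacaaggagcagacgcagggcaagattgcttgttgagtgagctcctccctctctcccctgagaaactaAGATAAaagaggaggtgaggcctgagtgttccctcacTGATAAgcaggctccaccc
The Trim10 stretch is chr17:36869324-36869573, plus strand, with a CACCC box, an antisense GATA motif and an NF-E2 core.
Trim10: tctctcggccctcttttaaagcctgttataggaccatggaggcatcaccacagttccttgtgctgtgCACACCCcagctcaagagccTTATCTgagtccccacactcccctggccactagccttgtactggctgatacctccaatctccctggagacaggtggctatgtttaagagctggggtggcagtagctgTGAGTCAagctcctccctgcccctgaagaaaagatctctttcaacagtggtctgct

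The globin genes gave some of the strongest signals of the whole table, close to the highest signal of each array. On 4 of the 6 arrays the brightest of all probes was an Hbb-bs probe. The alpha globin gene Hba-a1 read 31501, 32358 and 36697 in WT1 to WT3 and 36556, 38670 and 39931 in KO1 to KO3. Those values were 75.9% to 96.1% of the highest signal on the array. WT1 and WT2 were lowest, and WT3 and KO1 were nearly equal. The brightest probe of the adult beta globin gene Hbb-bt read 29009, 30579 and 33420 in the controls and 33659, 35060 and 36611 in the KO arrays. The brightest probe of its neighbour Hbb-bs read 33378, 37123 and 44494 in the controls and 41265, 41340 and 41552 in the KO arrays, inside the range of the controls. The log2 differences were 0.25 ± 0.09 (SE) for Hba-a1, 0.25 ± 0.09 for Hbb-bt and 0.18 ± 0.12 for Hbb-bs, with adjusted p values of 0.637, 0.617 and 0.787 in limma. All 3 genes lay near the top of the scale, where over 50% of the highest signal was reached on every array.

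The dimmer globin probes, which were far from the top, showed a much wider spread over the arrays than the bright ones. Of the 11 globin probes, 7 passed 50% of the highest signal on all 6 arrays, and 80 probes of the whole table did. Over these 7, KO3 was 1.02 to 1.27 times the control mean. The dimmest of the 6 Hbb-bs probes read 1352, 1774 and 2766 in WT1 to WT3 and 2265, 4366 and 11174 in KO1 to KO3. KO3 was 5.69 times the control mean there and KO2 was 2.22 times, while KO1 lay within the controls. The dimmest of the 4 Hbb-bt probes read 501, 574 and 774 in the controls and 847, 1196 and 2793 in the KO arrays, and its groups did not overlap. KO3 was 4.53 times the control mean for that probe. The log2 differences of these probes were 1.46 ± 0.74 and 1.32 ± 0.57, each with an adjusted p of 0.815 when every probe was tested in limma. Hbb-bs and Hbb-bt are close copies, as are the alpha globin genes, and the sources used here do not show which copy each probe reads. Between the dim and the bright probes lay an Hbb-bt probe at 14403 to 25626, with KO3 at 1.47 times the control mean, and an Hbb-bs probe at 18647 to 29008, with KO3 at 1.38 times.

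**Figure D3:**
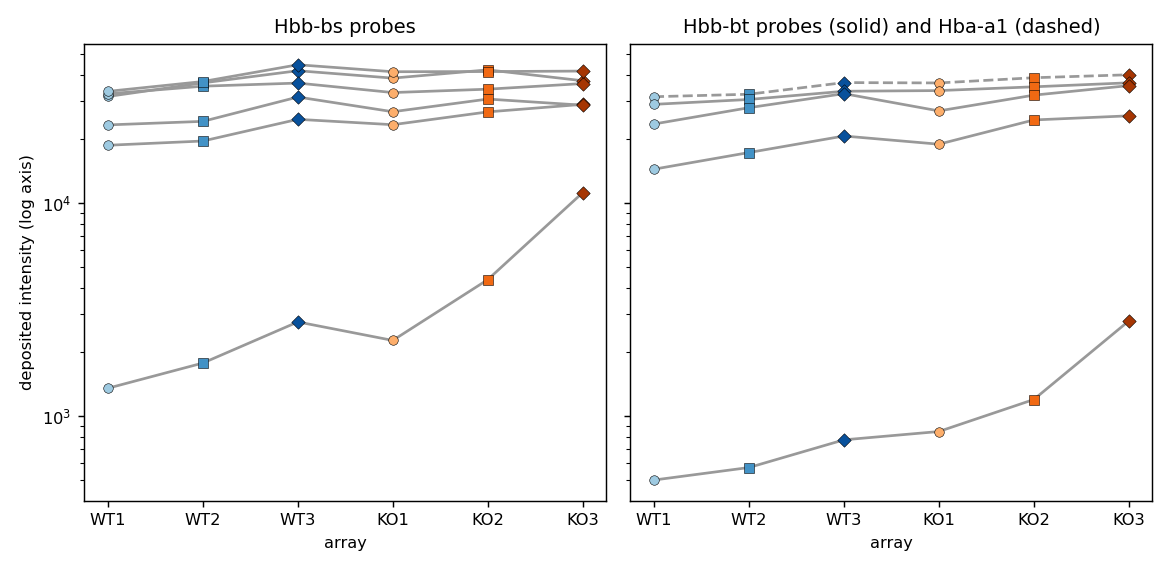
Deposited intensity on a log axis for the 11 globin probes on the 6 arrays; each grey line joins the values of 1 probe and has no time order. Most probes lie between 14403 and 44494, and the dimmest Hbb-bs and Hbb-bt probes reach 11174 and 2793 in KO3.

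Heme synthesis begins with Alas2, the erythroid form of aminolevulinate synthase, and Alas2 had the widest range of these enzymes. Its signal was 651, 951 and 1322 in WT1 to WT3 and 1309, 2273 and 5015 in KO1 to KO3. KO3 stood far above the rest, and KO1 was level with WT3. The log2 difference was 1.49 ± 0.66 (SE, adjusted p = 0.730) and fell to 0.88 without KO3. Alad, the second enzyme of the pathway, read 1236, 1316 and 1405 in the controls and 1475, 1804 and 1827 in the KO arrays. The groups did not overlap for Alad, and the difference was 0.47 ± 0.17 (adjusted p = 0.628). Fech, which inserts iron into the ring, read 36.2, 15.5 and 28 in the controls and 42.4, 51.9 and 87.7 in the KO arrays, with WT2 under the background limit. Another Fech probe had the opposite direction, at 22.2 to 53.5 in the controls and 17.5 to 28.2 in the KO arrays. A further Fech probe read 14.2 to 23.7 in the controls and 28.4 to 34.3 in the KO arrays, without overlap and in the direction of the first, so the probes disagree.

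Of the enzymes that act between Alad and Fech, Urod and Ppox showed small differences. Urod, uroporphyrinogen decarboxylase, read 5735 to 5967 in the controls and 5320 to 6057 in the KO arrays, with a difference of 0.05 ± 0.07 (SE). Ppox, protoporphyrinogen oxidase, read 840 to 964 in the controls and 818 to 978 in the KO arrays, with a difference of 0.14 ± 0.16. The groups overlapped for both genes, and the differences without KO3 were -0.008 and -0.014. Uros, uroporphyrinogen synthase, differed by 0.38 ± 0.22, and its dimmest probe by -0.17 ± 0.09. All 4 Cpox probes stayed below background on the 6 arrays, so no fold is given.

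Iron supply was represented by 3 genes, and Tfrc had the lowest p of all 30. Tfrc encodes the transferrin receptor, through which cells take up iron, and dividing cells of many types carry it. Its signal was 1847, 1942 and 2043 in the controls and 2499, 2830 and 2489 in the KO arrays, with every KO array above every control. KO1 was as high as KO3 here in deposited signal. On the normalized scale KO3 was highest (11.53), then KO2 (11.42) and KO1 (11.28), the order that Alas2 also had. The log2 difference was 0.53 ± 0.08 (SE), which is 1.44-fold, with an unadjusted p of 0.00178 and an adjusted p of 0.401 over all genes in limma. The second Tfrc probe differed by 0.49 ± 0.08, again without overlap. Over the alternatives the difference of Tfrc ran from 0.42 to 0.59 and the adjusted p from 0.220 to 0.692. Slc25a37, mitoferrin, which carries iron into mitochondria, read 1782, 1721 and 1782 in the controls and 1782, 2302 and 3050 in the KO arrays. KO1 thus matched the controls, and the difference was 0.50 ± 0.28, or 0.21 without KO3. The groups counted as not overlapping by a narrow margin, KO1 at 10.79 and the highest control at 10.78 on the normalized scale. A second Slc25a37 probe overlapped, at 86.3 to 119 in the controls and 90.5, 118 and 137 in the KO arrays, and differed by 0.22 ± 0.22. Slc25a38, the glycine carrier that feeds the first step of heme synthesis, read 2378 to 2541 in the controls and 2216 to 2561 in the KO arrays and differed by 0.05 ± 0.09.

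The 9 red cell membrane genes had a median difference of 1.21 (log2), and 6 of them differed by more than 1. Slc4a1, band 3, the anion exchanger of the red cell, read 1001, 1860 and 2381 in WT1 to WT3 and 2218, 5392 and 9136 in KO1 to KO3. KO2 and KO3 exceeded every control, while KO1 did not. Its difference was 1.65 ± 0.71 (SE, adjusted p = 0.720), and 1.09 without KO3. Kel, the Kell blood group protease, read 58.3, 77.5 and 107 in the controls and 92, 249 and 467 in the KO arrays. Ermap, another blood group protein, read 13.7, 40.9 and 40.6 in the controls and 46.9, 129 and 217 in the KO arrays, where WT1 was under the background limit. Rhag, the Rh-associated ammonium channel, read 23, 20.7 and 36.8 in the controls and 28, 96.4 and 145 in the KO arrays, and WT1 and WT2 were under the background limit. Its other 2 probes read 19.9 to 50.7 and 5.5 to 28.6 in the controls, each with WT1 under the limit, and 130 and 135 in KO3. In all 4 genes KO3 was highest and KO2 second. The differences were 1.43 ± 0.66 for Kel, 1.57 ± 0.62 for Ermap and 1.21 ± 0.56 for Rhag, with adjusted p values of 0.740, 0.680 and 0.740.

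The skeleton under the membrane is a net of spectrin tied to band 3 by ankyrin. Sptb, beta spectrin, read 120, 189 and 181 in the controls and 165, 419 and 724 in the KO arrays, and Ank1, erythroid ankyrin, read 36.8, 71.9 and 78.9 in the controls and 52, 170 and 279 in the KO arrays. KO1 lay within the controls for both. The differences were 1.24 ± 0.63 (SE) and 1.11 ± 0.67. A second Sptb probe above background on all arrays read 46.5 to 58.4 in the controls and 40.6 to 44 in the KO arrays, against the direction of the first. Gypc, glycophorin C, which leukocytes also carry, read 553, 447 and 492 in the controls and 626, 606 and 629 in the KO arrays. Its groups did not overlap, with a difference of 0.42 ± 0.10 and an adjusted p of 0.465 in limma. For Gypc, KO1 was level with KO3 in deposited signal but lower on the normalized scale (9.32 against 9.55). Neither Epb42 nor Rhd exceeded background on any array.

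**Figure D4:**
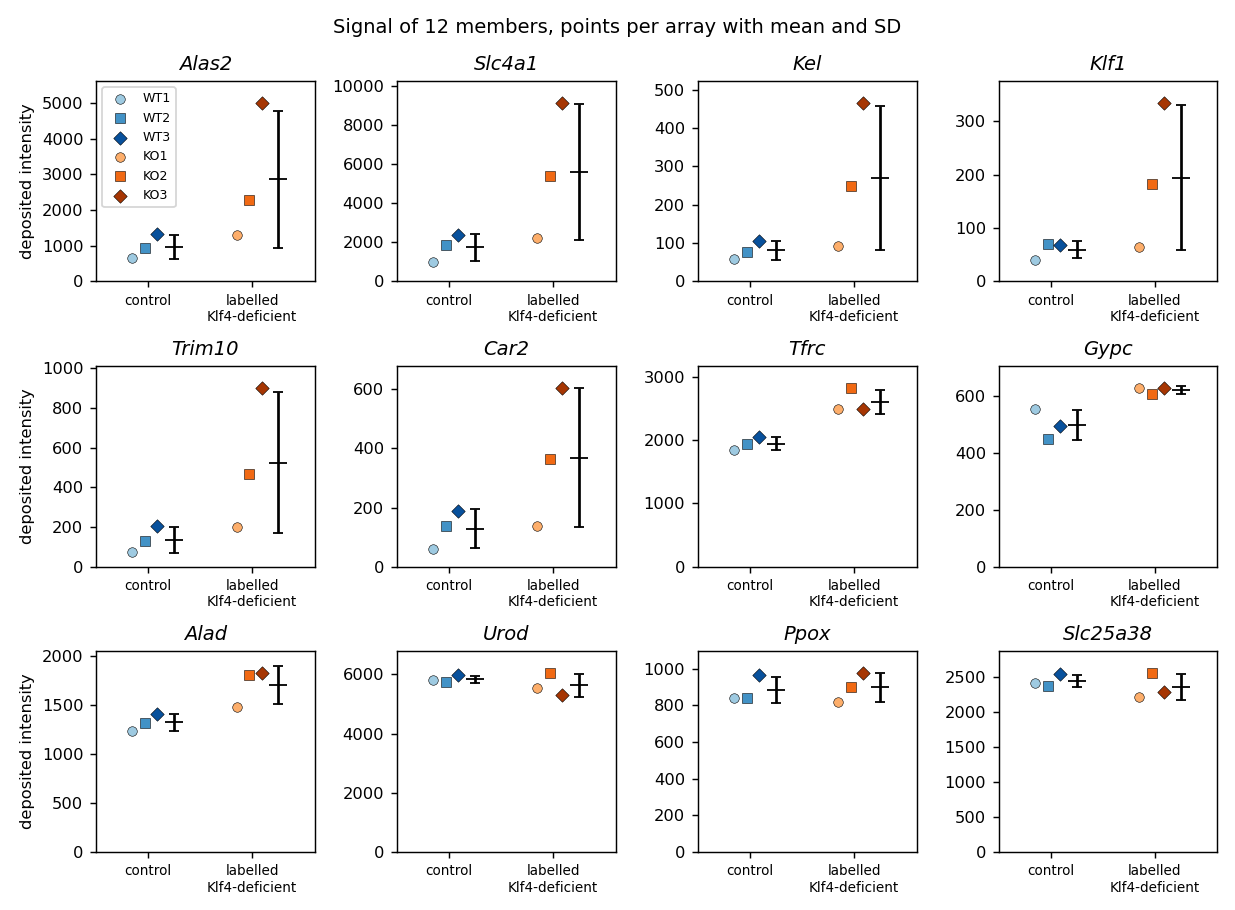
Deposited intensity of 12 genes on each array, with the mean and SD (bars) of the 3 arrays of a group. For Alas2, Slc4a1, Kel, Klf1, Trim10 and Car2 the KO arrays are drawn apart by KO3 and KO2, for Tfrc, Gypc and Alad all 3 KO arrays exceed the controls, and for Urod, Ppox and Slc25a38 the groups overlap.

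All 4 receptor and regulator genes had KO3 highest and KO2 second on the normalized scale. Klf1, the erythroid Krüppel-like factor that drives beta globin, read 41.1, 69.4 and 68.2 in WT1 to WT3 and 64.8, 183 and 335 in KO1 to KO3. KO1 was within the controls, and KO3 was 5.62 times their mean. The difference of Klf1 was 1.34 ± 0.65 (SE, adjusted p = 0.744), and 0.78 without KO3. Nfe2, the p45 subunit of NF-E2, read 462, 654 and 579 in the controls and 535, 857 and 1796 in the KO arrays. Its difference was 0.85 ± 0.57 and 0.29 without KO3. Epor, the erythropoietin receptor, read 29.1, 31 and 33.4 in the controls and 28.7, 59.8 and 98.3 in the KO arrays. Gata1, the master factor of the lineage, was above the background limit in KO3 alone, at 28.6, so no fold is given for it.

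The remaining enzymes and Trim10 included the largest difference of the 30 genes. Trim10, a ring finger protein needed for terminal erythroid maturation, read 71.8, 131 and 204 in the controls and 201, 468 and 902 in the KO arrays. KO1 was level with WT3 and KO3 was 6.66 times the control mean. The difference was 1.79 ± 0.72 (SE, adjusted p = 0.684), and 1.20 without KO3. Car1 and Car2, carbonic anhydrases that hydrate carbon dioxide in red cells, read 37.6 and 58.9 in WT1, 284 and 364 in KO2 and 467 and 606 in KO3. WT2 and WT3 lay between 139 and 194 for both genes, above KO1 at 99.7 and 137. Their differences were 1.08 ± 0.85 and 1.405 ± 0.72. Bpgm, which makes the haemoglobin ligand 2,3-bisphosphoglycerate, had KO1 highest at 124 and KO3 lowest at 47.7, with controls between 66.5 and 93.7 and a difference of 0.00 ± 0.33.

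A wider list of erythroid, iron and heme genes had a smaller median difference than the 30. It also holds genes that many cells use, such as Actb and Cd47. Of 68 genes listed, 61 were measured and 42 were above background on every array. In limma 0 passed; an unadjusted p under 0.05 was reached by 2 of the 61 with KO higher and 0 with KO lower, beside 3.49% and 4.10% of all genes. The median log2 difference was 0.14, and 0.00 over all genes. For 13 of the 61 the difference was above 1, which held for 0.593% of all genes. The groups did not overlap, with KO higher, for 10 of the 61 (all genes 5.45%), and with KO lower for 0 (all genes 6.11%). KO3 was highest and KO2 second for 27 of the 61 (44.3%), against 5.34% of all genes. Glrx5, a glutaredoxin of iron-sulfur cluster assembly, differed by 0.35 ± 0.08 (SE, adjusted p = 0.452), Fth1, ferritin heavy chain, by 0.18 ± 0.05, and Prdx2, a peroxiredoxin abundant in red cells, by 0.25 ± 0.10. Tspan33, a tetraspanin, read 38.3, 67.7 and 98.8 in the controls and 96.3, 267 and 500 in the KO arrays, and Blvrb, biliverdin reductase B, read 402, 691 and 762 in the controls and 785, 1511 and 2395 in the KO arrays. Tmcc2 differed by 1.71 ± 0.69 and was above background on 1 control array. The embryonic globins Hba-x, Hbb-bh1 and Hbb-y were under the limit on every array.

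Markers of other marrow cells were measured beside the erythroid genes. Of 16 macrophage markers 15 were measured. KO3 was highest and KO2 second for 11 of the 15, against 5.34% of all genes, and WT1 was lowest for 11, against 11.3%. Their summed signal was 1305 to 1996 in the controls and 1911, 3228 and 3764 in KO1 to KO3, with Siglec1, Cd5l, Cd163 and Timd4 below background throughout. Slc40a1, the iron exporter, is in this list and in the wider erythroid list. Spic, a factor of iron-recycling macrophages, read 15.8 to 50.8 in the controls and 79.3, 143 and 134 in the KO arrays. All 11 neutrophil markers were above background, and their summed signal was 74450 to 103576 in the controls and 75596, 82356 and 142296 in KO1 to KO3, highest in KO3. Of 8 eosinophil, basophil and mast cell markers, 6 were measured, and the sum was 4064 to 7175 in the controls and 10029, 11176 and 13174 in the KO arrays. Most of that sum was the eosinophil gene Prg2, at 3763 to 6971 in the controls and 9561, 10419 and 12460 in KO1 to KO3. The groups did not overlap for Prg2 and Epx but overlapped for Mcpt8, Cpa3 and Gata2, and Ms4a2 was under the limit on every array. Of 8 megakaryocyte markers 7 were measured and 5 were under the limit on every array, among them Pf4, with sums of 57.7 to 89.7 in the controls and 76.3, 129 and 86.7 in the KO arrays. The 21 measured of 24 double-positive T cell markers summed to 149981 to 163004 in the controls and 151531, 154252 and 131450 in KO1 to KO3, with a median log2 difference of -0.06. These sums are of deposited signal. Over all genes the sum was also lowest in KO3, at 10348700 against 11992300 to 12748800 in the controls. The part of these cells in the erythroid differences was not tested.

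**Figure D5:**
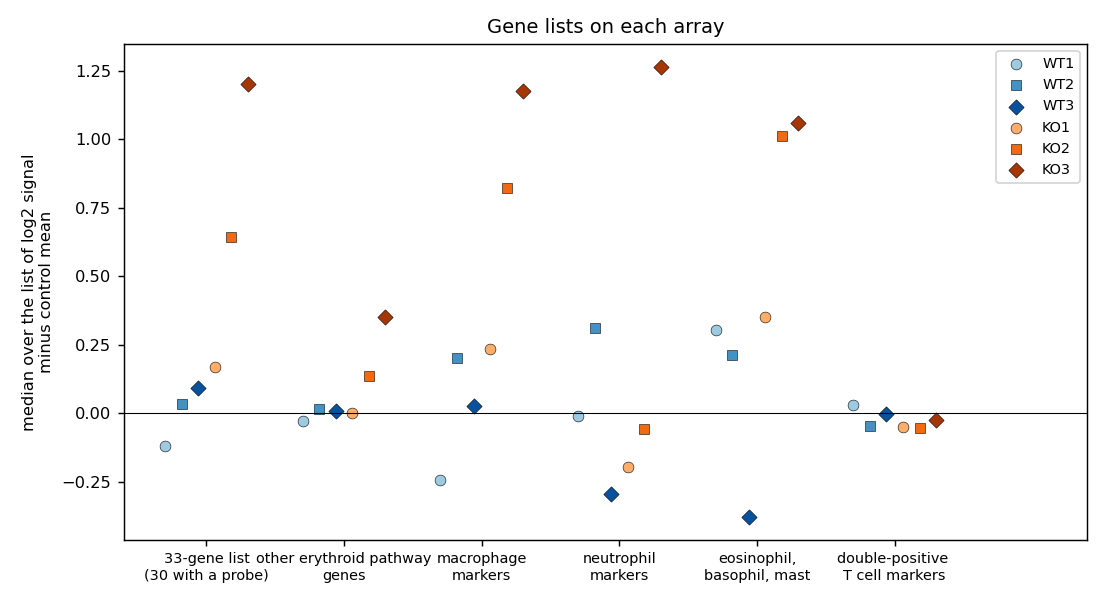
Median over each gene list of the normalized log2 signal minus the control mean, per array. The erythroid list reaches 0.64 in KO2 and 1.20 in KO3, macrophage markers 0.82 and 1.18, neutrophil markers -0.06 and 1.27, and T cell markers stay within 0.06 of 0.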

How the data were processed

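Total RNA labelled with biotin was hybridised to Illumina bead arrays by a service company, per the labels. The authors deposited linear intensity per probe; BeadStudio is the tool that the submitters' processing notes name, and 31.3% to 34.2% of the values on an array are below 0. Any normalization by the authors is not given in the sources used here, and the number of arrays limits the precision. Negative intensities were raised to 0, log2(intensity + 16) was taken and arrays were quantile normalized, so folds of dim genes are understated.

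Of 45281 probes, 34885 carried 1 gene symbol, 18 several, and the rest were unnamed. Differences came from limma 3.58.1 in R 4.3.3 (lmFit, eBayes with a variance trend; 3 against 3 arrays), with Benjamini-Hochberg adjustment over 19057 genes and a threshold of 0.05. The background limit is 3 times the SD of the negative values mirrored around 0, and near the top means over 50% of the array's highest signal. The fits were tested on simulated data. The members and lists were chosen with earlier results of these data known. All 33 genes were named, and up to 6 genes of the wider list above background with the smallest unadjusted p. Alternatives were other normalizations, offsets, filters, probe rules, variance models, array weights, the replicate block and leaving out each array. A planned comparison of globin protein sequences was not made, since no protein table was used here.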

Additional observations from a re-analysis of the deposited data

How the results depend on the processing

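Under all 22 alternatives run, 0 of the measured erythroid genes and 0 of the wider list passed in limma. The median log2 difference of the erythroid genes stayed above 0, from 0.25 to 0.89, and was 0.25 with every probe tested for itself, 0.40 without KO3 and 0.79 without the 3 genes near the top. Leaving out 1 array at a time gave 0.40 to 0.89. The count of genes whose groups did not overlap, in either direction, was 10 (all genes 11.6%). Averaging each gene's probes gave 6 (all genes 11.0%), and no normalization between arrays gave 7 (all genes 10.6%). With every probe taken alone, 16 probes did not overlap (all probes 9.90%). With 1 array left out the count was 10 to 25, with 25 without KO1 (24 higher and 1 lower, all genes 22.4%). Over all genes 2 were called. The number was 1 with arrays centred on the median, cyclic loess, an offset of 50, no variance trend, robust moderation or every probe, 5 with no normalization or an offset of 1, 0 with averaged probes, and 3 to 23 with 1 array left out.

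With the replicate block, 0 genes were called over all genes, the erythroid median was 0.63 and 10 genes did not overlap (all genes 11.6%). Same-numbered samples correlated at 0.15, -0.03 and -0.24 in their deviations from the group means. With 3 arrays in a group, these values cannot decide whether the numbers pair the samples. Single genes kept their direction in 522 of 535 values. The 13 that turned belonged to 4 genes: Urod (-0.028 centred, -0.053 unnormalized, -0.008 without KO3), Slc25a38 (-0.030, -0.056 and -0.025 in the same order), Ppox (-0.014 without KO3) and Bpgm (-0.028 centred, -0.053 unnormalized, -0.009 with an offset of 1, -0.037 without WT2, -0.048 without WT3, -0.322 without KO1). With 1 array left out, Urod ran from -0.008 to 0.107, Slc25a38 from -0.025 to 0.130, Ppox from -0.014 to 0.248 and Bpgm from -0.322 to 0.211. The cause was not tested. In a choice made after the values were seen, Hbb-bs and Hbb-bt were read from their brightest probe not near the top. Hba-a1 has no other probe and kept its own. The replacement probes differed by 0.43 (Hbb-bs) and 0.505 (Hbb-bt). Both values stayed under the median of 0.63, so this choice could not move the median.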

Other observations

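Among the 8360 genes above background on every array, ranked by KO3 minus the control mean on the log2 scale, 7 of the 25 highest were erythroid genes of the list, of 23 such genes in the ranking. They were Trim10, Slc4a1, Alas2, Kel, Car2, Klf1 and Sptb. Aqp1, the water channel of red cells, and Tspan33 stood among the same 25, beside myeloid genes such as Tyrobp, Lrg1 and Stfa2 and the interferon-induced Ifitm1 and Ifitm3. The ranking was made after the values were seen and is a description of 1 array.

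Among the 20 brightest probes of an array, 0, 3 and 4 were globin probes in WT1 to WT3, and 3, 4 and 6 in KO1 to KO3. In WT1 and WT2 the brightest probe was that of Rplp1, a ribosomal protein.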
